A study of Mus musculus with 6 samples.

Results

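Markers of the intestinal stem cell, the 10 genes *Lgr5*, *Olfm4*, *Ascl2*, *Smoc2*, *Axin2*, *Gkn3*, *Igfbp4*, *Cdca7*, *Tnfrsf19* and *Clca3b* were looked up by symbol among the 32285 genes of 6 single-cell RNA libraries of mouse jejunal epithelium, and all 10 were found. Each of 3 groups of male wild-type C57BL/6J mice, about 30 weeks old and fasted overnight, gave 1 library labelled crypts and 1 labelled villi. The LFD sham group (3 mice pooled) ate a low-fat diet and had a sham operation, the HFD sham group (3 mice pooled) ate a high-fat diet and had the same sham operation, and the HFD VSG group (2 mice pooled) ate the high-fat diet and had a vertical sleeve gastrectomy (VSG), in which most of the stomach along its outer curve is removed. Diets ran for 16 weeks before surgery and tissue was taken 5 weeks after it. Because each group is 1 pooled library per fraction, the spread between mice is unknown for every difference given below, and no test was made.

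The small intestinal epithelium is renewed from stem cells at the crypt base, which sit between Paneth cells and give rise to dividing progenitors and then to enterocytes, goblet, Paneth, tuft and enteroendocrine cells (EECs). Their identity is kept by Wnt signalling: Wnt ligands stabilize β-catenin, which enters the nucleus and activates genes with Tcf/Lef factors, and R-spondins amplify the signal through receptors of the *Lgr5* family. Among the 10 genes, *Lgr5* encodes an R-spondin receptor, *Axin2* a scaffold that returns β-catenin to degradation, *Ascl2* a transcription factor that holds stem cell identity and *Tnfrsf19* (Troy) a receptor of the tumor necrosis factor family. *Olfm4*, *Smoc2*, *Igfbp4* and *Gkn3* encode secreted proteins, *Cdca7* encodes a nuclear protein that works with a chromatin remodeller during DNA replication, and *Clca3b* belongs to the family of regulators of calcium-activated chloride channels.

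The genes lie on 8 chromosomes of GRCm38. *Lgr5* (ENSMUSG00000020140) spans chr10:115450311-115587780 on the minus strand, and *Olfm4* (ENSMUSG00000022026) and *Tnfrsf19* (ENSMUSG00000060548) share chromosome 14, at chr14:79984081-80023139 and chr14:60963875-61046490. *Axin2* (chr11:108920349-108950783) and *Igfbp4* (chr11:99041244-99054392) share chromosome 11. *Clca3b* (chr3:144822623-144849357) has close relatives of its family beside it on chromosome 3, so reads shared between family members make its counts less certain.

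Wnt signalling reaches its target genes through Tcf/Lef factors, so the 250 bases before the annotated start were searched for the core letters CTTTGA and CTTTGT on both strands. RefSeq windows (GRCm38.p6) were held for 8 of the 10 genes, all but *Lgr5* and *Smoc2*, with 2 starts for *Tnfrsf19*. The letters were found once each before *Gkn3*, *Clca3b* and 1 of the starts of *Tnfrsf19*, that is in 3 of 8 genes, and 27.6% of all 32851 promoter windows of this length held them. The windows before the other 5 genes, among them *Axin2*, held none. The 3 windows with a match and that of *Axin2* are shown, each from 5′ to 3′ on the strand of its gene, with the match in capitals; all 3 matches read from the opposite strand.
Gkn3, chr6:87388936-87389185, minus strand: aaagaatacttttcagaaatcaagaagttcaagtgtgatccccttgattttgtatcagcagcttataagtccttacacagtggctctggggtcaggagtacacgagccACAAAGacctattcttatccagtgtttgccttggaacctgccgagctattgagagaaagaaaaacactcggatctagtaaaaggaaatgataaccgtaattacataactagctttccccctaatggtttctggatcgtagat
Tnfrsf19, chr14:61037988-61038237, minus strand: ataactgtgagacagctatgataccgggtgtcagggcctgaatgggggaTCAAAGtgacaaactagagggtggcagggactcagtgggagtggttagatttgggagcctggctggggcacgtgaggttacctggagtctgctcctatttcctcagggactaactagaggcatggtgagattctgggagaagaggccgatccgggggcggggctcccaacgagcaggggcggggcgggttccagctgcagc
Clca3b, chr3:144849303-144849552, minus strand: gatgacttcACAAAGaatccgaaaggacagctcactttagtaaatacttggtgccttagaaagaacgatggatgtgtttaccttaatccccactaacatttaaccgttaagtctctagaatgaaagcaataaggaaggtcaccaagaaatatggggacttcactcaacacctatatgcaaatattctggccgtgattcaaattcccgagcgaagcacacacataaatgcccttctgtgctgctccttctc
Axin2, chr11:108920099-108920348, plus strand: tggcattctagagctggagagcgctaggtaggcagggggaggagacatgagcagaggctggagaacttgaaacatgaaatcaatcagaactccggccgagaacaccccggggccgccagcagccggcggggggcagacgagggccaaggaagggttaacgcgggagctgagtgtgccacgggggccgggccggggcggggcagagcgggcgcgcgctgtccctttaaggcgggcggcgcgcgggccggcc
The match lies 142 bases before the start of *Gkn3*, 201 before that of *Tnfrsf19* and 241 before that of *Clca3b*. The *Tnfrsf19* window shown lies inside the span of the gene given above. The window of its other start (chr14:61046856-61047105), outside that span, held no match. The *Clca3b* window overlaps the end of the span given for that gene. The window of *Axin2* is GC-rich, with 69.2% G or C against 40.8% for *Gkn3* and 41.6% for *Clca3b*. The palindromic E-box CAGCTG, a sequence of the kind that factors of the *Ascl2* class bind, was found in 1 member window and in 13.0% of all windows. It lay 10 bases before the start of *Tnfrsf19* whose window is shown.

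RNA was captured in droplets, with a barcode for each droplet and a random tag, the unique molecular identifier (UMI), for each RNA molecule. The files hold UMI counts for 7765 to 12012 barcodes per library called as cells, with 60522766 UMIs in the HFD sham crypts to 155522445 in the HFD VSG villi and medians of 3622.5 to 15202 UMIs per barcode. Pairs of libraries shared 17 to 43 barcodes, at most 0.450% of the smaller library. After filters on genes, mitochondrial UMIs and suspected doublets, 2906 to 4676 cells per library and 23675 in all were clustered without using the 10 genes, 8 of which were among the most variable genes. Levels (CPM) are the UMIs of a gene scaled to a fixed total (1e6 UMIs) for each class or library, and intervals are exact 95% limits that cover counting error only.

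One cluster of 989 cells carried all 12 other stem cell markers, such as *Slc12a2*, *Rgmb* and *Lrig1*, and is called stem-like. Its 10 leading genes included *Olfm4*, *Lgr5*, *Gkn3* and *Smoc2*, although none of them had been used to form it, and also genes of DNA replication such as *Mcm3* and *Mcm5*. Among crypt-labelled libraries it held 45 cells in LFD sham, 45 in HFD sham and 135 in HFD VSG, and among villus-labelled ones 233, 103 and 428 cells. Cycling progenitor-like cells, 2043 in 3 clusters led by genes of mitosis and of replication-dependent histones, of which the smallest (52 cells) also carried goblet markers, form the class next to it.

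All 10 genes were concentrated in stem-like cells. Their median level over the 6 libraries was higher in stem-like than in cycling progenitor-like cells. Over the libraries with at least 20 cells of a class, the highest median in any named class was in stem-like cells for 9 of the 10, all but *Ascl2*. The tuft-like median of *Ascl2* is over 5 libraries and leaves out the HFD sham crypts, whose 12 tuft-like cells held 0 of its UMIs. Enterocyte-like cells held these 10 genes at medians of at most 11.5 CPM, the value for *Axin2*. Because these cells were grouped by genes that vary with the 10, the levels by class are a description.

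**Figure D1:**
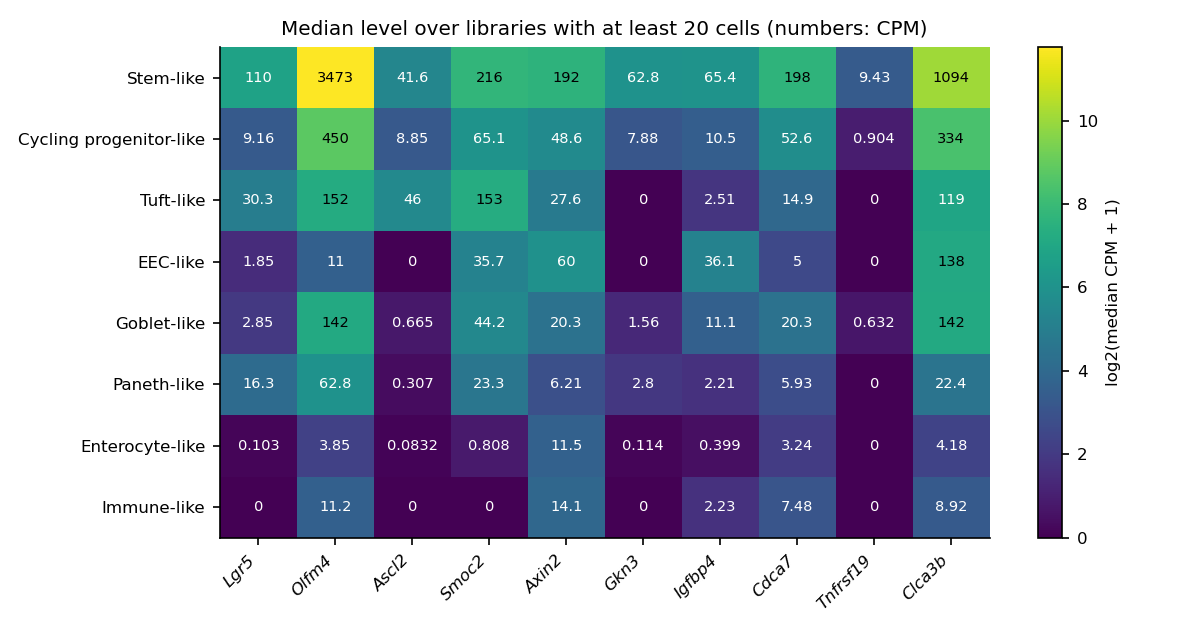
Median CPM over the libraries with at least 20 cells of a class, for each gene (columns) and class (rows), coloured on a log2(CPM + 1) scale with the CPM written in each field. The stem-like row is the brightest for every gene but *Ascl2*, whose median was 46.0 CPM in tuft-like cells (5 libraries) and 41.6 CPM in stem-like cells (6 libraries).

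Among the genes of Wnt signalling, *Lgr5* reached 145 CPM for LFD sham, 110 CPM for HFD sham and 140 CPM for HFD VSG in stem-like cells of the crypt-labelled libraries, and 111, 53.8 and 65.1 CPM in the villus-labelled libraries in the same order. The HFD sham and HFD VSG villi were thus the low libraries, and their intervals, 42.9 to 66.7 and 60.8 to 69.6 CPM, lay below those of the other 4. In 5 of 6 libraries stem-like cells had the highest *Lgr5* of any class with at least 20 cells, 1.93 to 6.74 times the next class. The 6.74, in the HFD sham crypts, depends on this limit, which left out 12 tuft-like cells. These held 6.38% of the clustered *Lgr5* UMIs there (6 UMIs) and 0.169% of all UMIs, beside 60.6% (57 UMIs) and 1.58% in stem-like cells. In the HFD sham villi tuft-like cells had 72.7 CPM (48.7 to 104), with an interval that overlapped that of stem-like cells (42.9 to 66.7).

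*Axin2*, whose transcription rises with Wnt signalling and which then limits it, stood at 223, 167 and 198 CPM in stem-like cells of the LFD sham, HFD sham and HFD VSG crypts and at 212, 186 and 125 CPM in the villi. The HFD VSG villi were lowest, with an interval (119 to 131 CPM) below those of the other 5 libraries. In all 6 libraries stem-like cells had the highest *Axin2* of any class with at least 20 cells, 2.58 to 4.10 times the next class. In the HFD sham crypts the intervals of stem-like and EEC-like cells overlapped. Enterocyte-like cells had 6.53 to 15.7 CPM and EEC-like cells 19.9 to 72.0 CPM. Pooled over the libraries, *Axin2* was the gene with the smallest share of its UMIs in stem-like cells.

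*Ascl2*, which is switched on by Wnt signalling and marks stem cells within the epithelium, had 29.6, 42.3 and 49.7 CPM in stem-like cells of the crypt-labelled libraries and 40.9, 26.9 and 44.6 CPM in the villus-labelled ones. The HFD sham villi were lowest, and their interval (19.4 to 36.4 CPM) overlapped those of the LFD sham crypts, HFD sham crypts and LFD sham villi but not those of the HFD VSG libraries. Tuft-like cells, the chemosensory cells of the epithelium, had 21.6 to 79.1 CPM and exceeded stem-like cells in 3 of the 5 libraries with at least 20 tuft-like cells. Only in the HFD VSG villi did the intervals of the 2 classes not overlap (79.1 CPM in tuft-like against 44.6 CPM in stem-like cells).

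*Tnfrsf19* was sparse, with 429 UMIs in all called barcodes of the 6 libraries. In stem-like cells it had 17, 3 and 24 UMIs in the LFD sham, HFD sham and HFD VSG crypts, or 25.1, 5.77 and 11.5 CPM, and 69, 11 and 96 UMIs in the villi, or 17.9, 7.05 and 7.38 CPM. The 2 LFD sham libraries were highest, and a single cell held 29.4% of the UMIs in the crypt-labelled one. No UMI of it was found in immune-like cells of any library with at least 20 of them.

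Among the secreted proteins, *Olfm4*, a glycoprotein of the mucus layer and the classical marker of human intestinal stem cells, had 3490, 4019 and 3455 CPM in stem-like cells of the crypts and 3788, 3108 and 3035 CPM in the villi. The HFD sham library was thus the highest of the crypts but below LFD sham in the villi, with no overlap of the counting intervals in either fraction. Its level in stem-like cells was 5.02 to 9.46 times that of the next class, in 5 of 6 libraries the cycling progenitor-like cells.

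*Smoc2*, a matrix-associated calcium-binding protein, had 199, 262 and 225 CPM in stem-like cells of the crypts and 250, 208 and 147 CPM in the villi. The HFD VSG villi were lowest, apart from all other libraries (interval 140 to 153 CPM). Tuft-like cells shared it too, at 104 to 194 CPM, and in that library their 171 CPM exceeded the level of stem-like cells with overlapping intervals.

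*Igfbp4*, which binds insulin-like growth factors, had 79.8, 94.3 and 47.8 CPM in stem-like cells of the crypts and 78.7, 41.7 and 52.2 CPM in the villi. The 2 HFD VSG libraries and the HFD sham villi were low and the other 3 high, with no overlap between the intervals of these low and high libraries. EEC-like cells had 8.47 to 104 CPM and exceeded stem-like cells in the HFD sham and HFD VSG crypts, with overlapping intervals, from 20 and 32 EEC-like cells. These levels rest on few counts, as the 192 EEC-like cells of all libraries together held 52 UMIs of the gene.

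*Gkn3*, a gastrokine best known from the stomach, had 48.8, 67.4 and 77.0 CPM in stem-like cells of the crypts and 43.7, 58.3 and 85.4 CPM in the villi. In both fractions it was lowest in LFD sham and highest in HFD VSG, although the intervals of all 3 groups overlapped in the crypts and those of LFD sham and HFD sham in the villi, where that of HFD VSG overlapped neither. Over the 6 libraries together 72.1% of its 2219 UMIs in clustered cells lay in stem-like cells (interval 70.2 to 74.0%), with 56.2% in the HFD sham villi to 76.7% in the HFD VSG villi, which gave 1449 of these UMIs.

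*Cdca7*, induced by Myc and active in replicating cells, had 214, 171 and 201 CPM in stem-like cells of the crypts and 225, 176 and 195 CPM in the villi. HFD sham was the lowest group in both fractions, but within counting error in the crypts and, against HFD VSG as scaled to all UMIs, in the villi. Log2 ratios there, relative to the median of all genes, were -0.29 (-0.69 to 0.10) for HFD sham over LFD sham and 0.18 (-0.15 to 0.53) for HFD VSG over HFD sham. On the same scale they were -0.37 (-0.57 to -0.18) and 0.43 (0.25 to 0.61) in the villi. The latter was 0.15 as scaled to all UMIs, where its interval spanned no change. Cycling progenitor-like cells were the next class in all 6 libraries, at 41.3 to 74.9 CPM.

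*Clca3b* had 966, 1230 and 1314 CPM in stem-like cells of the crypts and 1126, 1061 and 729 CPM in the villi. The HFD VSG library was thus the highest of the crypts, where its interval overlapped that of HFD sham, and the lowest of the villi, where it overlapped none. Pooled over the libraries, it spread furthest into cycling progenitor-like cells, which held 40.5% of its UMIs against 41.9% in stem-like cells. This order varied between libraries. In the LFD sham crypts, LFD sham villi and HFD sham villi cycling progenitor-like cells held more of its UMIs than stem-like cells.

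**Figure D2:**
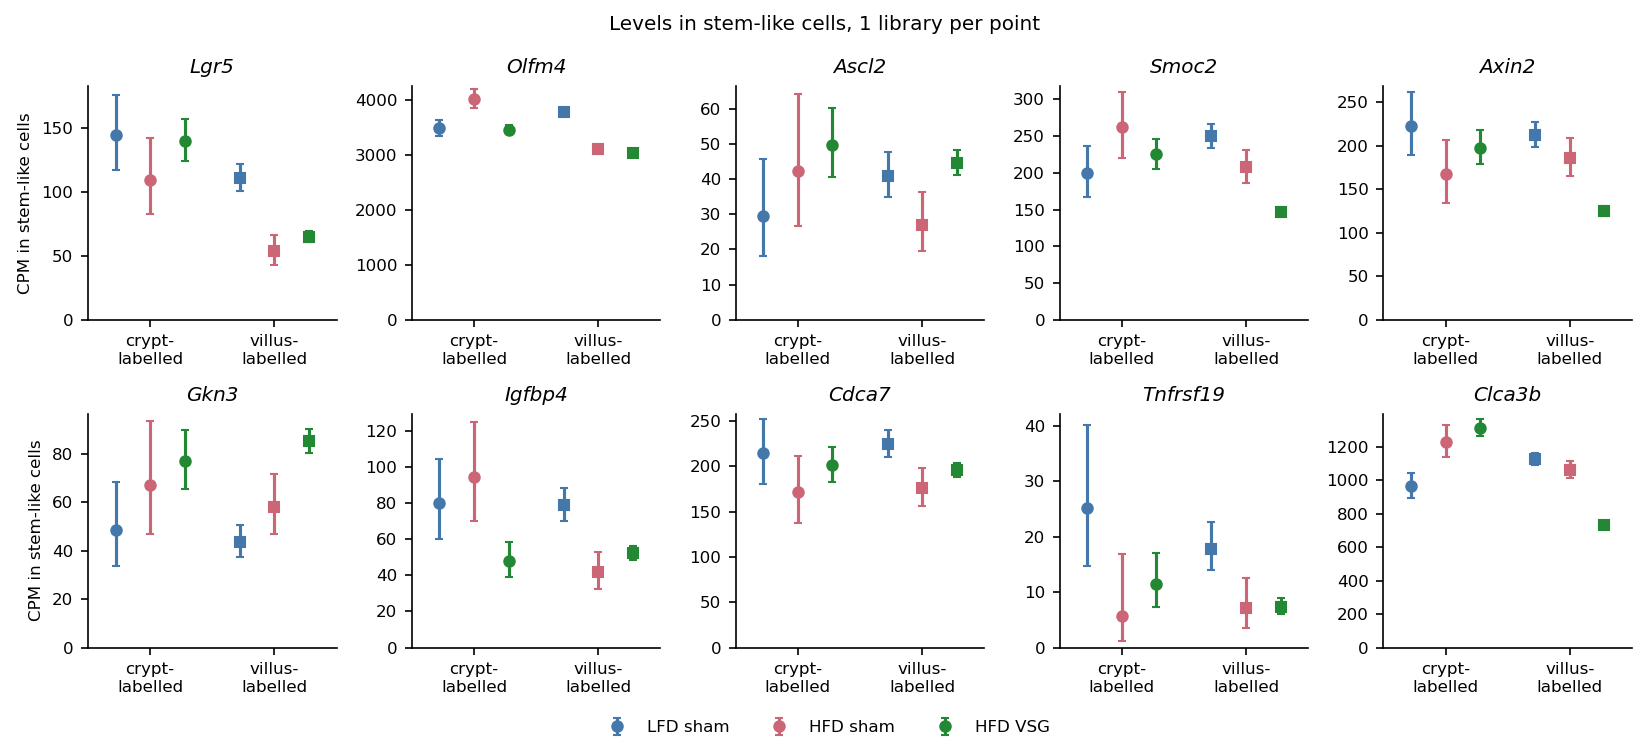
CPM of each gene in stem-like cells, with 1 library per point, crypt-labelled libraries as circles and villus-labelled ones as squares, blue for LFD sham, red for HFD sham and green for HFD VSG. Bars are exact 95% counting intervals; *Lgr5* is low in the red and green villus-labelled points, *Igfbp4* in those and the green crypt-labelled point, and *Gkn3* is highest in the green ones.

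Pooled over the libraries, the share of UMIs held by stem-like cells differed between the genes. Of 2761 *Lgr5* UMIs in clustered cells, 65.4% (63.6 to 67.2) lay in stem-like, 16.8% in cycling progenitor-like and 10.0% in Paneth-like cells. By library the stem-like share of *Lgr5* was lowest in the HFD sham villi (32.8%) and highest in HFD VSG crypts (78.1%), and HFD VSG villi alone gave 1139 of the 2761 UMIs. In the same pool stem-like cells held 66.8% of the UMIs of *Olfm4*, 66.9% of *Tnfrsf19*, 55.5% of *Ascl2*, 52.7% of *Igfbp4*, 45.9% of *Cdca7*, 40.8% of *Smoc2* and 34.8% of *Axin2*. These shares varied between libraries, from 51.9 to 74.2% for *Olfm4*, 31.6 to 61.2% for *Igfbp4*, 33.4 to 49.6% for *Cdca7* and 28.4 to 48.5% for *Smoc2*. For *Ascl2* they ran from 37.2 to 66.7%, and in the HFD sham villi and LFD sham crypts cycling progenitor-like cells held more of its UMIs (45.1% and 45.3%) than stem-like cells (37.2% and 37.7%), with overlapping intervals. In the crypt-labelled libraries enterocyte-like cells held more of the *Axin2* UMIs than stem-like cells did, 41.7%, 36.0% and 36.0% against 16.8%, 18.6% and 24.6% in LFD sham, HFD sham and HFD VSG, and in the villus-labelled ones less, 5.33 to 13.4% against 28.8 to 45.4%. For scale, stem-like cells were 4.18% of the clustered cells and held 5.73% of their UMIs. In the LFD sham, HFD sham and HFD VSG crypts they held 1.43%, 1.58% and 2.85% of all UMIs. Enterocyte-like cells there held 51.2%, 50.1% and 52.6%, more than their shares of the *Axin2* UMIs.

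**Figure D3:**
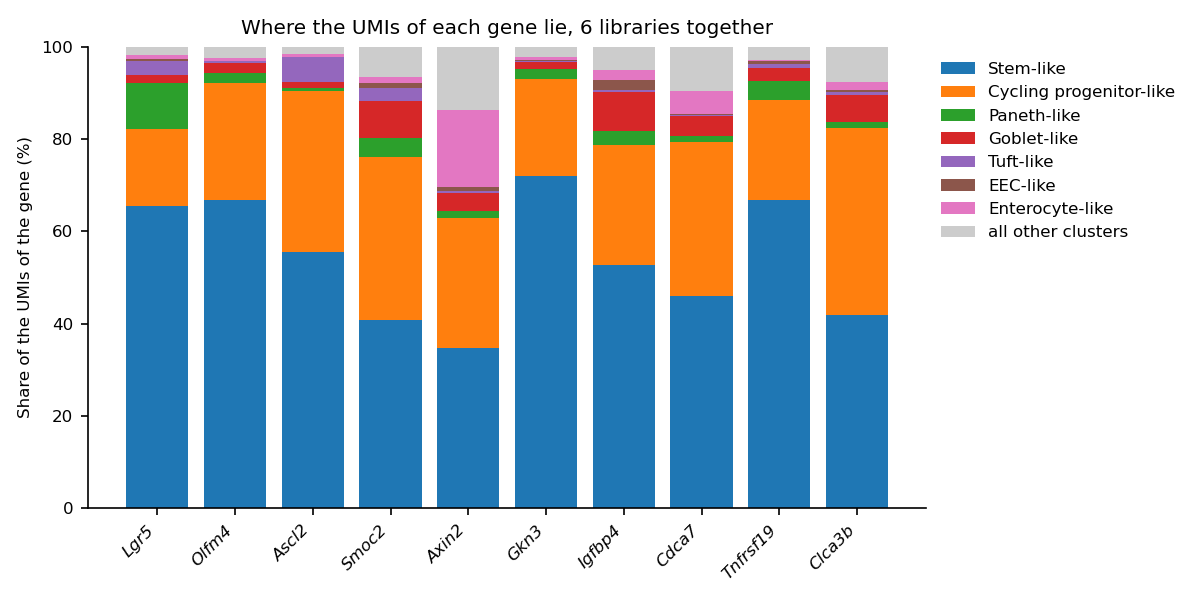
Share (%) of the UMIs of each gene that lie in each class, over the clustered cells of all 6 libraries, as stacked bars that start at 0. Stem-like cells (lowest segment) hold between 34.8% (*Axin2*) and 72.1% (*Gkn3*), and *Axin2* has the largest enterocyte-like segment, 16.8%, which was 36.0 to 41.7% in the crypt-labelled libraries taken singly. Enterocyte-like cells held 50.1 to 52.6% of all UMIs of clustered cells in those libraries.

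*Lgr5* in Paneth-like cells, the neighbours of stem cells in the crypt, was seen in all 6 libraries at 12.5 to 22.9 CPM. In the LFD sham crypts 63.2% of its 19 UMIs there came from 1 cell, whereas in the LFD sham villi 49 of 156 Paneth-like cells held 140 UMIs and the top cell 10.7%. *Ascl2* had at most 1.47 CPM in Paneth-like cells.

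A UMI of a gene in a cell depends on depth. *Lgr5* was found in 46.7% of 45 stem-like cells of the LFD sham crypts (median 14728 UMIs per cell), 46.7% of 45 of the HFD sham crypts, 51.1% of 135 of the HFD VSG crypts, 48.1% of 233 in the LFD sham villi, 30.1% of 103 in the HFD sham villi and 41.8% of 428 in the HFD VSG villi. Enterocyte-like cells, which should lack it, held it in at most 1.16% of cells at medians of 13616 to 34705 UMIs, and immune-like cells in at most 0.716% at medians of 3130 to 5958 UMIs. The share in stem-like cells was therefore above the background of free RNA in every library. When cells were thinned to 1500 UMIs each, the shares were 17.8%, 11.1%, 17.8%, 17.6%, 9.71% and 7.24% in the same order of libraries, lowest in the HFD VSG villi, whose stem-like cells were the deepest (median 29642.5 UMIs). No stem-like cell was too shallow for this thinning, and at most 0.116% of thinned enterocyte-like cells held the gene.

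*Olfm4* and *Clca3b* were near complete in stem-like cells, with a UMI in 88.9 to 94.9% and 93.3 to 99.6% of cells. *Smoc2* (82.2 to 92.3%), *Axin2* (73.3 to 87.6%) and *Cdca7* (73.3 to 97.4%) followed, then *Gkn3* (37.3 to 54.7%), *Igfbp4* (40.8 to 63.1%) and *Ascl2* (23.3 to 49.3%), with *Tnfrsf19* in 6.67 to 17.8%. In enterocyte-like cells the shares were at most 20.3% for *Axin2*, 21.3% for *Olfm4* and 18.6% for *Clca3b* and at most 14.5% for the other 7, and in immune-like cells at most 21.2% for *Olfm4*. After thinning to 1500 UMIs, stem-like cells had a median of 3 of the 10 genes in 5 libraries and of 2 in the HFD VSG villi, and 42.5 to 60.0% of them held 3 or more. In cycling progenitor-like cells 7.58 to 14.8% held 3 or more, and no enterocyte-like or immune-like cell did in any library. These classes leave out the unnamed clusters, the largest of which had 3303 cells and 2 of 10 enterocyte markers. Without thinning, up to 54.6% of its cells held *Clca3b*, up to 29.9% *Cdca7* and up to 24.4% *Smoc2*. After thinning, at most 0.217% of its cells held 3 or more of the 10 genes, and at most 3.14% in any unnamed cluster.

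Droplets with fewer than 100 UMIs, which hold free RNA and no cell, carried *Lgr5* at 0.501 to 8.97 CPM and *Olfm4* at 33.0 to 399 CPM, higher in all 3 villus-labelled libraries than in the crypt-labelled ones. These levels lay far below those of stem-like cells but, in the villus-labelled libraries, near those of all called barcodes: free *Lgr5* had 8.88, 6.38 and 8.97 CPM in the LFD sham, HFD sham and HFD VSG villi (16, 12 and 41 UMIs) beside 11.1, 4.76 and 9.28 CPM, and free *Olfm4* had 266, 92.5 and 399 CPM beside 385, 150 and 425 CPM. *Lgr5* had no UMI among 1659 enterocyte-like cells of the LFD sham crypts, where a floor of 3 counts equals 0.124 CPM. Free RNA at the fraction estimated from immune-like cells would make up at most 11.7% of the level of any of the 10 genes in stem-like cells, a value reached by *Lgr5* in the HFD sham villi, where the estimate rests on 7 immune-like cells. With the fractions that the original processing had used it would make up at most 2.64%. Those fractions were higher in both HFD sham libraries than in all others. The levels given here are not corrected for free RNA, which also counts in the totals they are scaled to, and its part in the ratios with HFD sham was not tested.

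Across whole libraries the 10 genes were higher in the villus-labelled than in the crypt-labelled library of each group. *Lgr5* had 2.31 and 11.1 CPM over all called barcodes of the LFD sham crypts and villi, 1.98 and 4.76 CPM in HFD sham, and 3.96 and 9.28 CPM in HFD VSG. *Olfm4* had 57.9 and 385 CPM, 69.3 and 150 CPM, and 106 and 425 CPM in the same order. Each gene was higher in the villus-labelled library of each group, by at least 1.43-fold (*Axin2* in HFD VSG) and up to 8.11-fold (*Tnfrsf19* in LFD sham).

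The median log2 ratio of villus- to crypt-labelled library was 2.53 in LFD sham, 1.25 in HFD sham and 1.81 in HFD VSG, with all 10 genes above 0.5 in each group. Of all genes that averaged 20 UMIs or more, 43.5%, 34.7% and 43.1% were above 0.5 in the 3 groups and 12.4%, 8.86% and 21.6% below -0.5, and their median ratios were 0.35, 0.25 and 0.31. In sums over whole libraries, more cells of a type and more RNA per cell cannot be told apart. Stem-like cells were 1.12% of clustered cells in the LFD sham crypts and 5.74% in the villi, 1.55% and 2.75% in HFD sham, and 2.89% and 10.1% in HFD VSG.

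**Figure D4:**
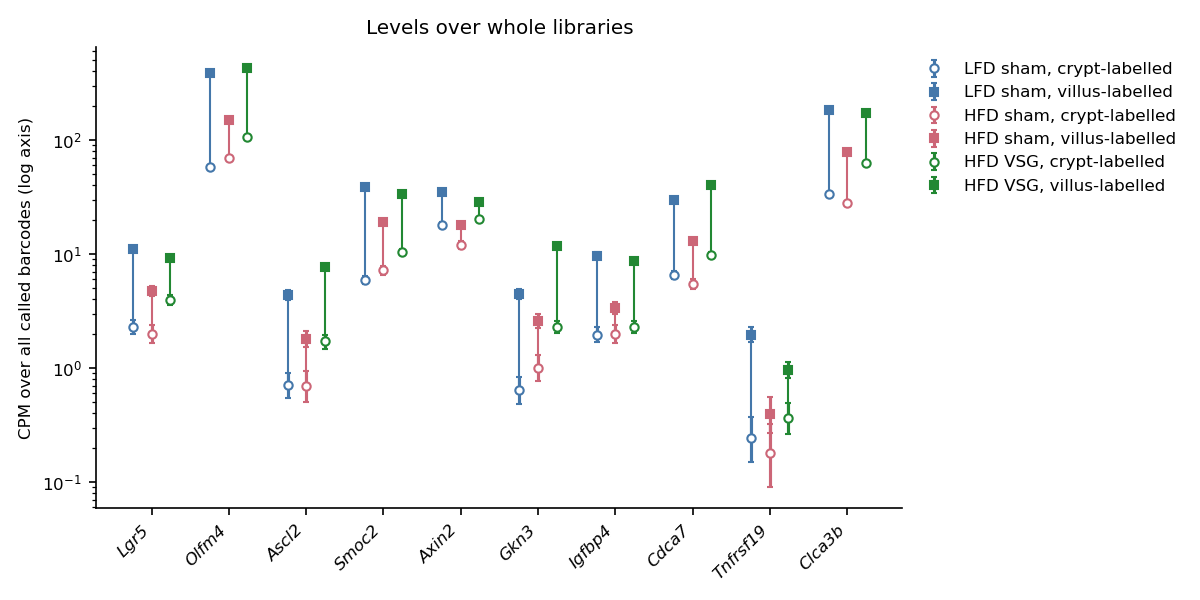
CPM of each gene over all called barcodes, on a log axis, with open circles for crypt-labelled and filled squares for villus-labelled libraries, a line joining the 2 libraries of a group and bars for exact 95% counting intervals. Every square lies above its circle, from 1.43-fold for *Axin2* in HFD VSG to 8.11-fold for *Tnfrsf19* in LFD sham.

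Within stem-like cells this order was not seen. The median villus- to crypt-labelled ratio of the 10 genes was 0.02 in LFD sham, -0.27 in HFD sham and -0.40 in HFD VSG, beside medians of all genes of 0.05, 0.08 and -0.24. None of the 10 was above 0.5 in any group, where 14.5%, 13.8% and 5.09% of all genes were, and 0, 3 and 5 of them were below -0.5, where 6.03%, 7.36% and 28.9% of all genes were. *Lgr5* was lower in stem-like cells of the villus-labelled library in each group, with log2 ratios of -0.39 (-0.71 to -0.05) in LFD sham, -1.03 (-1.53 to -0.52) in HFD sham and -1.11 (-1.30 to -0.91) in HFD VSG. The 10 enterocyte markers, all detected in each library, moved with this contrast and had sums of 7411 to 7664 CPM in stem-like cells of the crypt-labelled and 3306 to 4254 CPM in those of the villus-labelled libraries. The 11 Paneth markers moved the other way, from 1544 to 3772 CPM in LFD sham, 772 to 2839 CPM in HFD sham and 510 to 802 CPM in HFD VSG, and the 9 goblet markers from 500 to 2218 CPM in HFD sham. The part of these markers in the ratios was not tested.

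The first comparison asks how a long high-fat diet relates to these genes. In stem-like cells of the crypts, HFD sham against LFD sham (45 cells each), 6 of 10 genes were higher and 4 lower, and the median log2 ratio was 0.22 beside a median of -0.03 for all genes. *Ascl2* was 1 of 10 above 0.5 (0.52, -0.42 to 1.47, from 22 and 20 UMIs), where 8.02% of all 4228 genes tested lay. *Tnfrsf19* was the 1 below -0.5 (-2.12, -4.53 to -0.33, from 3 and 17 UMIs). It averaged fewer than the 20 UMIs required of the genes tested, and of the 9 that reached them none was below -0.5, where 8.85% of all genes lay. The intervals of *Olfm4* (0.20, 0.12 to 0.29), *Smoc2* (0.39, 0.04 to 0.75) and *Clca3b* (0.35, 0.19 to 0.51) were above 0, and that of *Axin2* (-0.41, -0.81 to -0.02) below it. With cells thinned to 1500 UMIs the median turned to -0.50.

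In the villus-labelled libraries, with 103 HFD sham and 233 LFD sham stem-like cells, 9 of 10 genes were lower in HFD sham. The median log2 ratio was -0.32 beside 0.02 for all genes, and 4 of 10 lay below -0.5, where 5.93% of 8838 genes did, with none above 0.5, where 6.05% did. These were *Lgr5* (-1.04, -1.40 to -0.70), *Igfbp4* (-0.92, -1.33 to -0.53), *Tnfrsf19* (-1.34, -2.41 to -0.41) and *Ascl2* (-0.60, -1.13 to -0.10). *Olfm4* (-0.29, -0.33 to -0.24), *Smoc2* (-0.27, -0.45 to -0.08) and *Cdca7* (-0.35, -0.55 to -0.15) were lower by less, and *Gkn3* was the exception at 0.42 (0.03 to 0.79).

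Other values moved with this library. The 9 goblet markers, all detected, summed to 2218 CPM in stem-like cells of the HFD sham villi against 363 to 587 CPM in the other 5 libraries, where 8 or 9 were detected. The 11 Paneth markers summed to 2839 CPM there, 3772 CPM in the LFD sham villi and 510 to 1544 CPM in the other 4, with *Mptx2* and *Clps* at 0 in the HFD sham crypts. Their part in the lower levels was not tested. Subtraction of free RNA with fractions from immune-like cells turned the median to 0.33, with a fraction of 0.985 estimated for the HFD sham villi from 7 cells. It also turned *Ascl2*, *Olfm4*, *Smoc2*, *Cdca7* and *Clca3b* from below to above 0.

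**Figure D5:**
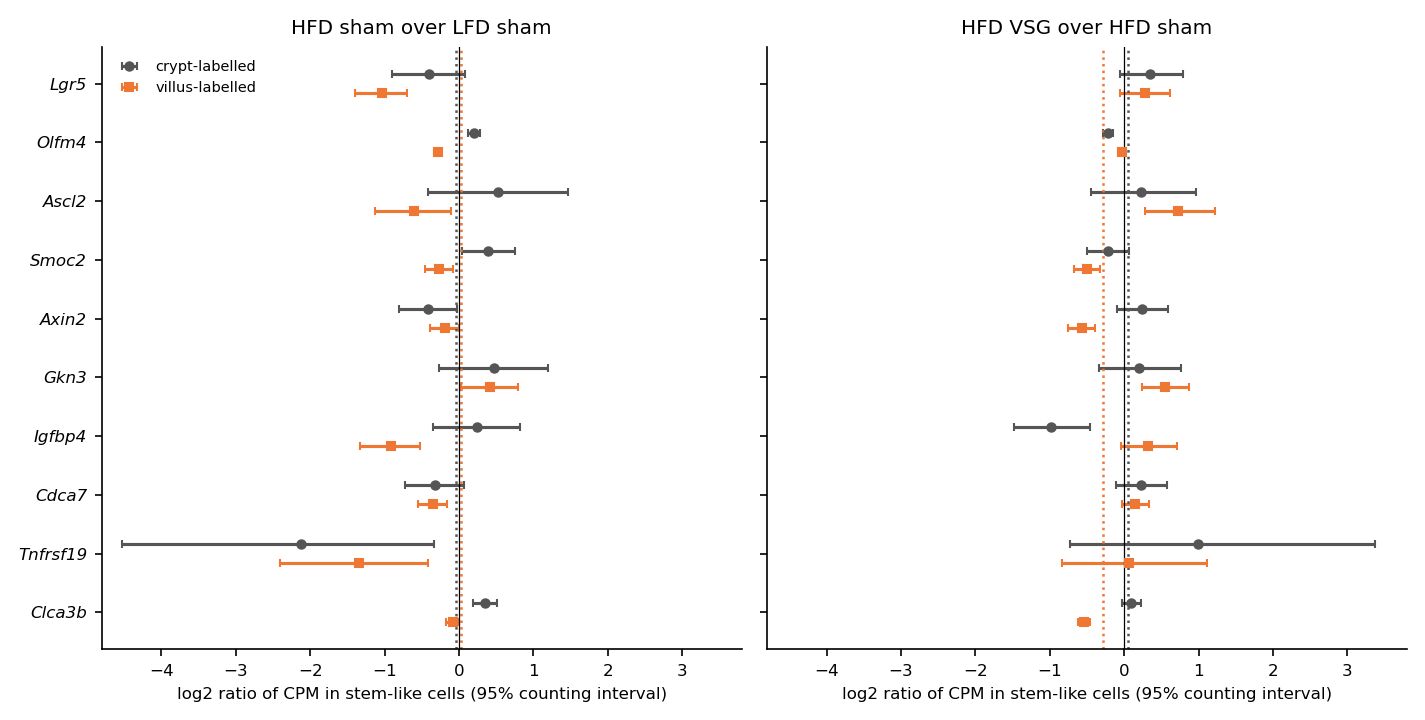
Log2 ratio of CPM in stem-like cells for each gene, HFD sham over LFD sham (left) and HFD VSG over HFD sham (right), with grey circles for crypt-labelled and orange squares for villus-labelled libraries and bars for exact 95% counting intervals. Dotted lines mark the median of all genes tested; in the left panel 9 of 10 orange squares lie below 0, and both panels share the HFD sham libraries.

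The second comparison, HFD VSG against HFD sham, addresses sleeve gastrectomy on the same diet and shares its HFD sham libraries with the first, so a low or high value there moves both ratios. In stem-like cells of the crypts (135 against 45 cells) 7 of 10 genes were higher and the median log2 ratio was 0.21 beside 0.05 for all genes. *Igfbp4* was below -0.5 (-0.98, -1.49 to -0.46), where 8.52% of 6856 genes lay. *Tnfrsf19* was at 0.99 (-0.73 to 3.37, from 24 and 3 UMIs) but averaged fewer than 20 UMIs, and of the 9 genes that reached them none was above 0.5, where 12.3% lay. With cells thinned to 1500 UMIs *Igfbp4* turned to 0.42. *Olfm4* was slightly lower (-0.22, -0.29 to -0.15), and *Lgr5* was at 0.35 (-0.06 to 0.79).

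In the villus-labelled libraries (428 against 103 cells) the ratios of all genes were themselves shifted to a median of -0.28, and 35.3% of 10185 genes lay below -0.5 against 8.39% above 0.5. Stem-like cells of the HFD VSG villi had a median of 29642.5 UMIs against 11348 in the HFD sham villi, and the part of this depth gap in the shift was not tested. *Ascl2* (0.73, 0.27 to 1.22) and *Gkn3* (0.55, 0.24 to 0.87) were above 0.5, and *Axin2* (-0.57, -0.75 to -0.39), *Clca3b* (-0.54, -0.62 to -0.47) and *Smoc2* (-0.50, -0.67 to -0.33) below -0.5. Subtraction of free RNA with fractions from immune-like cells turned *Ascl2* to -0.13 and *Gkn3* to -0.34. It used a fraction of 0.985 for the HFD sham villi, estimated from 7 cells. Relative to the median of all genes, 7 of 10 were above 0, 4 of them by more than 0.5, as were 20% of all genes on that scale, and the median of the 10 was 0.39. *Lgr5* was at 0.27 as scaled to all UMIs and 0.55 relative to all genes, whereas *Olfm4* went from -0.03 to 0.25. The median of the 10 as scaled to all UMIs, 0.11, was below 0 under 4 alternatives, with -0.20 for thinned cells.

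The 12 other stem cell markers, which are not among the 10, summed to 1815 CPM in stem-like cells of the HFD VSG villi and to 2666 to 3073 CPM in the other 5 libraries, all detected in each. Against LFD sham, the HFD VSG villi had 6 of 10 genes below -0.5, where 34.4% of 10441 genes lay, and *Gkn3* above 0.5 (0.96, 0.73 to 1.21), where 6.79% lay. Relative to the median of all genes, 1 of the 10 was below -0.5, where 16.2% of all genes lay on that scale, and 1 above 0.5, where 19.5% lay, with a median of -0.33. In the crypts the median of that comparison was -0.03, with *Ascl2* (0.75, 0.05 to 1.52) and *Gkn3* (0.66, 0.11 to 1.25) above 0.5, where 12.5% of 7007 genes lay, and *Igfbp4* (-0.74, -1.23 to -0.23) and *Tnfrsf19* (-1.13, -2.09 to -0.14) below -0.5, where 6.48% lay.

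Over all called barcodes the median ratio of the 10 lay further from 0 than within stem-like cells for HFD VSG over HFD sham in both fractions. The same held for HFD sham over LFD sham in the villi and for HFD VSG over LFD sham in the crypts (0.80 against -0.03). It lay nearer to 0 for HFD sham over LFD sham in the crypts and for HFD VSG over LFD sham in the villi. HFD sham villi were lower than LFD sham villi in all 10 genes by more than 0.5 (median log2 ratio -1.22; all genes -0.17, 21.9% of them below -0.5 and 4.96% above 0.5), and HFD VSG villi were higher than HFD sham villi in all 10 (median 1.34; all genes 0.18, 35.0% above 0.5 and 18.5% below -0.5). In the crypts HFD sham and LFD sham differed by a median of -0.13 (all genes -0.09), with *Gkn3* above 0.5, where 4.01% of genes lay, and *Axin2* below -0.5, where 11.6% lay, and HFD VSG exceeded HFD sham by more than 0.5 in 9 of 10 genes (median 0.92; all genes 0.24, 18.5% above 0.5 and 3.3% below -0.5). Relative to the median of all genes, 9 of 10 in the villi and 7 of 10 in the crypts were above 0.5 for HFD VSG over HFD sham, as were 27.2% and 7.68% of all genes on that scale. *Lgr5*, for one, was at 0.96 (0.80 to 1.13) in the villi and 1.00 (0.71 to 1.30) in the crypts for HFD VSG over HFD sham, against 0.27 and 0.35 within stem-like cells. For HFD VSG over LFD sham, 8 of 10 were above 0.5 in the crypts, where 17.3% of all genes lay, and none below -0.5, where 7.6% lay. In the villi 2 were above, where 21.8% lay, and 1 below, where 24.8% lay. For HFD VSG over HFD sham the share of stem-like cells moved the same way, from 2.75% to 10.1% of clustered cells in the villi and from 1.55% to 2.89% in the crypts. It also did from LFD sham to HFD sham villi (5.74% to 2.75%, median ratio -1.22) and from LFD sham to HFD VSG crypts (1.12% to 2.89%, median ratio 0.80). It did not in the other 2 comparisons: from LFD sham to HFD VSG villi the share was 5.74% and 10.1% with a median ratio of -0.11, and from LFD sham to HFD sham crypts it was 1.12% and 1.55% with a median ratio of -0.13.

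In cycling progenitor-like cells, the dividing cells next to the stem state, most of the 10 genes were lower in HFD sham than in LFD sham in both fractions. In the crypts (103 against 104 cells) 7 of the 9 genes with a ratio were lower, 5 of them below -0.5 and none above 0.5. Of the 6 that averaged 20 UMIs or more, 2 were below -0.5, where 8.14% of 7951 genes lay, and none above 0.5, where 8.14% lay. The median was -0.56 and *Lgr5* was lowest at -2.17 (-3.58 to -0.98), from 7 UMIs in 4 HFD sham cells and 37 UMIs in 9 LFD sham cells. The interval treats UMIs as separate counts and takes no account of how few cells held them. In the villi (331 against 420 cells) 7 of 10 lay below -0.5, or 6 of the 9 that averaged 20 UMIs or more, where 9.61% of 10451 genes did, and none above 0.5, where 8.79% did, with a median of -0.57. Among these were *Cdca7* (-0.80), *Clca3b* (-0.79, -0.86 to -0.71) and *Olfm4* (-0.54, -0.60 to -0.48), and *Lgr5* was at 0.04 (-0.44 to 0.50). In the same cells of the LFD sham and HFD sham villi 12 genes of the later cycle (G2 and M) summed to 3348 and 1909 CPM and 15 genes of the S phase to 765 and 537 CPM, and in the crypts to 2131 and 2113 CPM and to 642 and 523 CPM. Their part in the lower levels was not tested.

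For HFD VSG over HFD sham the same class had a median of 0.52 in the crypts, with 5 genes above 0.5, or 4 of the 9 that averaged 20 UMIs or more, where 6.35% of 9188 genes lay, among them *Gkn3* (1.68, 0.36 to 3.37), *Clca3b* (0.61, 0.47 to 0.76) and *Axin2* (0.54, 0.14 to 0.97). *Smoc2* was below -0.5 there (-0.51, -0.80 to -0.22), where 6.44% lay. In the villi the median was -0.05 as scaled to all UMIs and 0.23 relative to all genes, whose own median was -0.28. *Ascl2* (0.72, 0.29 to 1.17) and *Cdca7* (0.50, 0.32 to 0.69) were above 0.5, 2 of the 9 that averaged 20 UMIs or more, where 7.27% of 11114 genes lay, and none was below -0.5, where 35.8% lay. *Tnfrsf19*, with 25 and 3 UMIs, was at 0.95 (-0.77 to 3.32). Against LFD sham, HFD VSG had 1 gene above 0.5 in the crypts, where 7.47% lay, and 3 below -0.5, where 7.79% lay, and in the villi none above, where 6.69% lay, and 6 below, where 38.2% lay. Relative to the median of all genes in the villi (-0.33), *Ascl2* (0.70, 0.36 to 1.05) and *Gkn3* (0.72, 0.33 to 1.12) were above 0.5, where 20.7% of all genes lay on that scale, and 4 were below -0.5, where 17.7% lay.

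Other genes of the pathway gave a frame for these values. Of 17 Wnt receptors and feedback genes, led in stem-like cells by *Ctnnb1* (β-catenin, mean 220 CPM), *Fzd5* (101 CPM), *Lgr4* (96.3 CPM) and *Apc* (86.6 CPM), 7 averaged 20 UMIs or more for HFD sham over LFD sham in the crypts and 12 in the villi, with none beyond 0.5 in either direction, where 8.02% and 8.85% of all genes lay above and below in the crypts and 6.05% and 5.93% in the villi. For HFD VSG over HFD sham, none was above and 1 below among 10 in the crypts (12.3% and 8.52% of all genes). In the villi 2 were above and 3 below among 12, beside 8.39% and 35.3% of all genes, and *Apc* was at -0.996 (-1.25 to -0.73) and *Lgr4* at -0.86 (-1.10 to -0.61). *Lgr6*, *Notum* and the niche ligands *Rspo1*, *Rspo3* and *Grem1*, which stromal or other cells make, had no UMI in stem-like cells.

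Of 7 other crypt Wnt targets, *Ccnd2* (921 CPM), *Ccnd1* (232 CPM), *Sox9* (150 CPM) and *Ephb2* (63.2 CPM) had the highest means in stem-like cells. None lay beyond 0.5 for HFD sham over LFD sham in the villi, where their median was -0.19, and 3 lay below -0.5 for HFD VSG over HFD sham, as did 35.3% of all genes, with a median of -0.36 beside -0.28 for all genes. In the crypts 1 of the 7, *Sox9*, a transcription factor of crypt cells (0.60, 0.24 to 0.99), was above 0.5 and none below -0.5 for HFD VSG over HFD sham, beside 12.3% and 8.52% of all genes. For HFD sham over LFD sham in the crypts 1 of the 6 that averaged 20 UMIs or more, *Ephb2* (0.64, -0.0350 to 1.32), was above and none below, beside 8.02% and 8.85%. Of 14 other stem or quiescence genes, 13 averaged 20 UMIs or more for HFD sham over LFD sham in the villi and 1 was above and 3 below, beside 6.05% and 5.93% of all genes, among them *Mex3a* (-1.08, -2.11 to -0.18) and *Soat1* (-0.81, -1.10 to -0.53), and 1 of 14 was above and 7 below for HFD VSG over HFD sham, beside 8.39% and 35.3% of all genes.

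The sum of 12 genes of the later cycle (G2 and M) in stem-like cells was 228, 293 and 327 CPM in the LFD sham, HFD sham and HFD VSG crypts and 453, 540 and 233 CPM in the villi, where 9 of 12 lay below -0.5 for HFD VSG over HFD sham, or 7 of the 10 that averaged 20 UMIs or more (35.3% of all genes; median of the 12 -1.16 beside -0.28 for all genes), led by *Mki67* (-1.88, -2.08 to -1.68). The 15 genes of the S phase summed to 1126, 999 and 1299 CPM in the crypts and to 1406, 1452 and 1185 CPM in the villi. In cycling progenitor-like cells the S phase genes summed to 488 to 765 CPM and the G2 and M genes to 1642 to 3348 CPM. The 5 genes of the injury-induced, fetal-like state, among them *Clu* and *Ly6a*, had a sum of at most 10.3 CPM in stem-like cells of each library.

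Over the 77 sums of a class in a library, the 10 genes varied together. Pearson's r of log2(CPM + 1) between pairs of them ran from 0.539 (*Ascl2* and *Igfbp4*) to 0.897 (*Smoc2* and *Clca3b*), with a median of 0.733 over all pairs. *Olfm4* was closest to the mean of the other 9 (r = 0.910) and *Axin2* furthest from it (r = 0.741). These points share libraries, depths and a single stem-like cluster, so the values are a description.

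Outside the 10, the genes with the pattern most like their mean were *Ifitm3* (r = 0.915), *Myb* (0.905), *Slc12a2* (0.905), *Stmn1* (0.892), *Ccdc34* (0.885), *Ung* (0.883), *Adra2a* (0.874), *Cdo1* (0.872), *Aqp4* (0.870) and *Nme4* (0.867), among 9413 genes compared. For *Lgr5* alone they were *Smoc2* (0.871), *Olfm4* (0.849), *Slc12a2* (0.848), *Adra2a* (0.833) and *Ifitm3* (0.830). *Slc12a2*, a sodium, potassium and chloride cotransporter, was itself 1 of the markers used to name the class.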

How the data were processed

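The authors deposited UMI counts per gene and droplet, made with Cell Ranger 6.0.0 against mm10 from 10x 3' libraries, as raw and filtered matrices; these counts carry no normalization. Gene positions are those of GRCm38. In each library, called barcodes with at least 750 genes and at most 20% mitochondrial UMIs were kept, suspected doublets were removed (at a rate that grew with the called barcodes, scored against 2 simulated doublets per barcode among 20 neighbours), and cells were integrated and clustered with Seurat 5.3.0 and sctransform 0.4.2 in R 4.3.3 (2000 variable genes without the 10 genes, 30 components, resolution 0.4). A cluster was named where it carried more than 2 of every 3 markers of a class and at least 3, a marker counting when its level was 2 times that of the median cluster or more and 10% of cells or more held a UMI. It stayed unnamed where its 10 leading genes included *Gm42418*, *Lars2* or 2 similar genes, or more markers of another class than of its own, or where its depth was below a set share of its libraries' medians and fewer than 5 of its own markers were among those genes. These naming limits were set after the data were seen, and cell types are rebuilt names. Under these limits 6 of the clusters stayed unnamed, of 3303, 2160, 2030, 897, 576 and 155 cells. For those of 3303, 2160, 576 and 155 cells the enterocyte list was the nearest. The 2030 cells were of low depth. The 897 cells carried 5 of 9 goblet and 4 enterocyte markers but were led by *Ly6m*, *Clca4a* and *Ada*, which are on neither list.

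UMIs were summed per class and library and scaled to CPM with Python 3.11.15, numpy 2.4.6, scipy 1.17.1 and pandas 2.3.3. Intervals (95%) are exact Poisson limits for a level, Clopper-Pearson limits for a share and exact conditional limits for a log2 ratio. A sum of 0 was set to a floor of 3 counts, and no ratio was given where both sums were at or under it. Ratios beyond 0.5 (log2) were counted, beside the same count over all genes that averaged 20 UMIs or more. The calculation of the ratio and its limits was checked on simulated counts that varied by counting error only. Clustering of UMIs within cells was no part of that check. With 1 pooled library per group and fraction there was no test between groups. All 10 genes are named with their values. Genes of other lists are named by highest mean CPM in stem-like cells or by largest ratio, and those at 0 in every library were named after their values were seen. The members and lists were chosen with earlier results of these data known. Alternatives varied the filters, doublets, scaling, resolution, clustering genes, subtraction of free RNA, thinning, gene minimum and ratio limit. Samples were grouped by the submitters' labels.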

Additional observations from a re-analysis of the deposited data

Results flagged for a closer look

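In stem-like cells, 3 genes had counting intervals for HFD sham over LFD sham that lay above 0 in the crypts and below 0 in the villi. The log2 ratios were 0.20 and -0.29 for *Olfm4*, 0.39 and -0.27 for *Smoc2*, and 0.35 and -0.0853 for *Clca3b*, in the crypts and the villi. In the villi, subtraction of free RNA with fractions from immune-like cells turned *Olfm4* to 0.39, *Smoc2* to 0.37 and *Clca3b* to 0.58, and with the fractions of the original processing *Clca3b* turned to 0.0801. The immune-based fraction for the HFD sham villi was 0.985, estimated from 7 cells. In the crypts *Olfm4* went to 0.06 when the 10 genes were kept for clustering, and thinning turned the median of the 10 to -0.50. With 1 library per group and fraction, the difference between fractions was not tested.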

How the results depend on the processing

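The crypt- and villus-labelled libraries of a group were set against each other as ratios, and no paired test was run on them. The cause was not tested for any value given here. Of 40 single-gene ratios in stem-like cells, of which 38 could be had after thinning, thinning moved 18 beyond their counting intervals and turned 1 further, subtraction of free RNA moved 12 and turned 1 with the fractions of the original processing and moved 12 and turned 7 with those from immune-like cells, and the 10% mitochondrial limit moved 7. Subtraction of free RNA with fractions from immune-like cells turned the HFD sham over LFD sham median in the villi to 0.33, and turned *Olfm4* to 0.39, *Ascl2* to 0.0312, *Smoc2* to 0.37, *Cdca7* to 0.28 and *Clca3b* to 0.58 there, and *Ascl2* to -0.13 and *Gkn3* to -0.34 for HFD VSG over HFD sham in the villi. For the HFD sham villi, which enter both of these villus comparisons, that fraction was 0.985, estimated from 7 immune-like cells. With the free RNA fractions of the original processing *Clca3b* turned to 0.0801 for HFD sham over LFD sham in the villi. Thinning to 1500 UMIs gave a median of -0.50 for HFD sham over LFD sham in the crypts, 0.42 for *Igfbp4* for HFD VSG over HFD sham in the crypts, and *Lgr5* shares of 17.8%, 11.1% and 17.8% in the LFD sham, HFD sham and HFD VSG crypts and 17.6%, 9.71% and 7.24% in the villi. For HFD VSG over HFD sham in the villi the median was 0.11 and went to -0.21 with at most 10% mitochondrial UMIs, -0.09 with the free RNA fractions of the original processing, -0.68 with those from immune-like cells and -0.20 with thinning. With a limit of 1 on the ratios, 1, 2, 0 and 0 of the 10 genes lay beyond it for HFD sham over LFD sham in crypts and villi and HFD VSG over HFD sham in crypts and villi, against 2, 4, 2 and 5 at a limit of 0.5. Of all genes 1.87%, 1.65%, 3.5% and 11.5% lay beyond 1, and the 1 gene in the first is *Tnfrsf19*, from 3 and 17 UMIs. With a gene minimum of 50 UMIs, 7.47%, 6.84% and 10.9% of all genes lay beyond 0.5 in the first 3 of these, against 16.9%, 11.98% and 20.8%. Over whole libraries the villus over crypt median went to 2.17 in LFD sham, 0.96 in HFD sham and 1.55 in HFD VSG with median-of-ratios scaling, and to 0.90 in HFD sham and 1.56 in HFD VSG with filtered barcodes. The share of *Lgr5* UMIs in stem-like cells was 67.4% with at most 10% mitochondrial UMIs and 60.3% with doublets kept. Depth limits *Tnfrsf19* most, with 3 UMIs in stem-like cells of the HFD sham crypts.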
